A study of Mus musculus with 4 samples.

Results

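The transcripts examined here were 10 genes of fat cells, *Adipoq*, *Plin1*, *Plin4*, *Fabp4*, *Cidec*, *Pparg*, *Cfd*, *Lep*, *Scd1* and *Retn*, in bulk RNA-seq of whole soleus muscle. They were chosen by symbol from a gene list, and all 10 were found among the 24054 genes of the expression table. All 4 muscles came from female *mdx* mice on a C57BL/10ScSn background, which lack dystrophin, so the mutation is shared by both groups and no muscle of a healthy mouse was compared. From 8 weeks of age, the mice of 2 samples had been infused monthly through the femoral vein with mouse cardiosphere-derived cells (mCDCs). These are heart cells grown out of tissue fragments and expanded in culture. The mice of the other 2 samples had been infused in the same way with the vehicle, Iscove's Modified Dulbecco's Medium. The soleus was taken at month 12. By the study's methods the mCDCs were prepared from the heart of a female C57BL/10ScSn/J mouse, so a single donor heart is described for all infusions.

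White fat cells store triglyceride in a large droplet coated by perilipins and Cide proteins, and they secrete hormones called adipokines. In dystrophic muscle, fat cells can appear between the fibers, where they are thought to arise from fibro-adipogenic progenitors, a resident mesenchymal cell type. The members fall into secreted proteins (*Adipoq*, *Lep*, *Retn*, *Cfd*), droplet coat proteins (*Plin1*, *Cidec*, *Plin4*), the lipid carrier *Fabp4*, the fatty acid desaturase *Scd1* and the transcription factor *Pparg*, which drives fat cell differentiation. Some of these genes have other sources in muscle. *Fabp4* is also made by capillary endothelium and *Plin4* by muscle fibers, whereas *Adipoq*, *Plin1* and *Lep* are made mostly by fat cells.

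Promoter sequences are shown for 3 genes whose levels moved together across the libraries (*Lep*, *Plin1*, *Adipoq*) and for *Plin4*, which did not move with them, so that the reader can see the DNA next to the values that follow. Each is the 300 bases from 250 before to 50 after a start of transcription in the RefSeq promoter table (GRCm38.p6), which for *Plin1* and *Plin4* lies inside the gene's full annotated span, read 5′ to 3′ on the strand of the gene, at chr6:29059971-29060270 on the plus strand for *Lep*, chr7:79732727-79733026 on the minus strand for *Plin1*, chr16:23146286-23146585 on the plus strand for *Adipoq* and chr17:56109733-56110032 on the minus strand for *Plin4*. Capitals mark matches, on either strand, to TATAA (the TATA box), TTGCNNAA (a C/EBP-type word, C/EBP factors being drivers of fat cell differentiation) or AGGTCA (the single recognition word of nuclear receptors such as PPARγ).
Lep: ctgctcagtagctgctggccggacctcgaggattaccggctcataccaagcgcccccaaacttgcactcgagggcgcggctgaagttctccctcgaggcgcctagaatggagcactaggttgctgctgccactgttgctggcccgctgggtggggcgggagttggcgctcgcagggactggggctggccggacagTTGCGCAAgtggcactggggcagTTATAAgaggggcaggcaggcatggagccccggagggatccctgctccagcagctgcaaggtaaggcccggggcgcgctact
Plin1: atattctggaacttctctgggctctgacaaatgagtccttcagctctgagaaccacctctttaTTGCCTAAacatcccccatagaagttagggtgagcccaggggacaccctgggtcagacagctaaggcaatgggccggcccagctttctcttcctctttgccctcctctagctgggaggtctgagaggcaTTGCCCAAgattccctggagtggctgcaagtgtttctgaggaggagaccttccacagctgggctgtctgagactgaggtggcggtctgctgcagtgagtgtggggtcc
Adipoq: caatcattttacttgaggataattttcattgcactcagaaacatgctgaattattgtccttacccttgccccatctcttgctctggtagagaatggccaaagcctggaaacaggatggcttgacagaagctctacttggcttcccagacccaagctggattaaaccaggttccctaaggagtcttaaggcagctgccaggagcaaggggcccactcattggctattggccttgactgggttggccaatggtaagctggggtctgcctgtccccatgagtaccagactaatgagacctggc
Plin4: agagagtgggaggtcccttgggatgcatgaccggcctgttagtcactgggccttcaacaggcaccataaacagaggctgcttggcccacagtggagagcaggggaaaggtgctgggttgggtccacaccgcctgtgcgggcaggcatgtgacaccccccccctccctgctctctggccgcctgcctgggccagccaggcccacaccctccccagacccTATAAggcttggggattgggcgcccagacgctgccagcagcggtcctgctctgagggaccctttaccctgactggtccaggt
The *Lep* window held TTGCGCAA, which reads the same on both strands, at position -55 from the start and TATAA at -31, the latter overlapping a match on the other strand at -32. The *Plin1* window held TTGCCTAA at -187 and TTGCCCAA at -58, and the *Plin4* window held TATAA at -32. The *Adipoq* window held none of the 3 words. RefSeq windows were matched for 8 of the 10 genes, with 11 windows in all. In these, TTGCNNAA was found for 4 genes (*Lep*, *Plin1*, *Cidec* and *Pparg*), TATAA for 3 (*Lep*, *Plin4* and *Pparg*) and AGGTCA for *Pparg* alone. AGGTCA stood at -28 and at -9 from the start sites of the first and second *Pparg* windows. Counted by window, TTGCNNAA was in 4 of the 11, TATAA in 3 and AGGTCA in 2. Of all 32851 promoter windows of that length, 10.8% held TTGCNNAA, 24.9% held TATAA and 16.3% held AGGTCA. The tandem word AGGTCANAGGTCA, the element PPARγ binds with its partner RXR, was in 0 of the 11 windows and in 0.0396% of all windows, and CACGTG was in 0 of the 11 and in 7.15% of all. These matches describe letters in a window and show no binding.

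Expected counts per library ranged from 22481391 to 27187425, a 1.21-fold range, and 15.7% of the values in the table were not whole (tolerance 0.001), since RSEM divides reads that fit several transcripts. Levels are given as CPM, the counts of a library rescaled to a fixed total, after TMM scaling (trimmed mean of M-values), and folds are mCDC against vehicle. As a check of the tissue, the 11 muscle fiber genes examined, among them *Acta1*, *Ckm* and *Myh7*, summed to between 137802 and 152688 CPM in each library. Calls needed more than a 1.5-fold difference together with an unadjusted p under 0.05 in the quasi-likelihood test of edgeR. This rule called 172 of the 13652 genes tested higher (1.26%) and 374 lower (2.74%) in mCDC muscles. With library totals in place of the scaling factors it called 121 higher and 508 lower. No gene had a Benjamini-Hochberg adjusted p under 0.05 in edgeR's quasi-likelihood test (947 had an unadjusted p under 0.05; DESeq2 gave 48 genes and edgeR's likelihood ratio test 66 with an adjusted p under 0.05). Nothing in the labels says more of the 2 samples of a group than their number, so p-values measure the spread between these samples. For 1 gene in 2 against 2 samples, the smallest p of an exact permutation test is 0.333.

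All 10 genes passed the filter on low counts, and the rule called 0 of them higher and 1, *Scd1*, lower. For 6 of the 10 (*Adipoq*, *Cidec*, *Cfd*, *Plin1*, *Lep* and *Retn*) the 2 mCDC libraries lay close together, with vehicle replicate 1 above both and vehicle replicate 2 below both. The vehicle replicates differed by 3.36 to 7.81-fold in these 6 genes. *Plin4* and *Fabp4* were lower in each mCDC library than in either vehicle library, but their fitted group differences were under 1.5-fold. In a bulk muscle, fewer fat cells and less of each transcript per fat cell cannot be told apart.

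**Figure D1:**
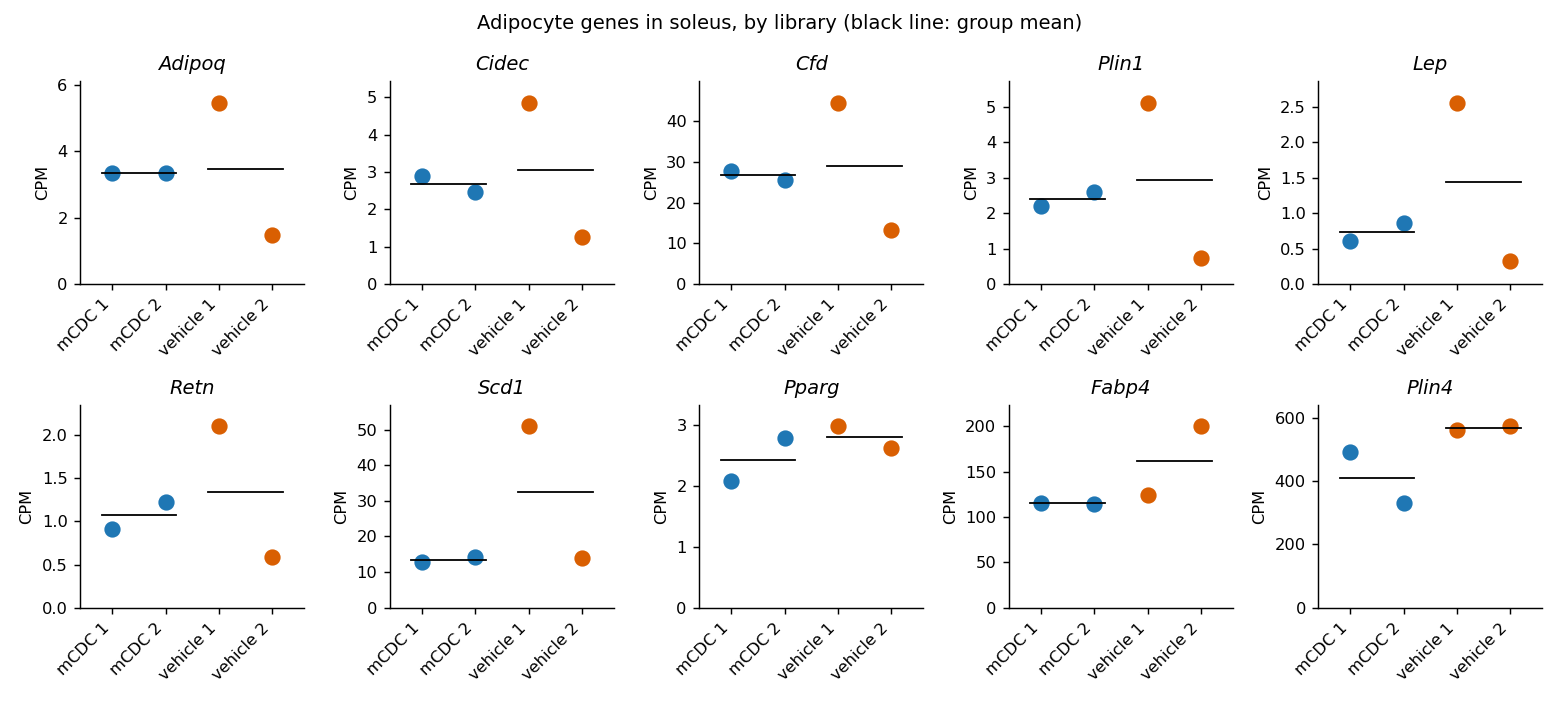
Level of each of the 10 adipocyte genes in the 4 soleus libraries, in CPM on linear axes that start at 0. Blue points are the 2 mCDC libraries, orange points the 2 vehicle libraries, and black lines the group means. In 6 panels (*Adipoq*, *Cidec*, *Cfd*, *Plin1*, *Lep*, *Retn*) vehicle replicate 1 is the highest point and vehicle replicate 2 the lowest.

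Adiponectin, encoded by *Adipoq* (chr16:23146536-23157968, GRCm38.p6), is a hormone that raises insulin sensitivity. *Adipoq* had 3.33 and 3.33 CPM in mCDC replicates 1 and 2, and 5.46 and 1.49 CPM in vehicle replicates 1 and 2. The mCDC pair lay between the vehicle samples, so the groups overlapped. The means were 3.33 ± 0.00135 CPM (SD, n = 2) with mCDCs and 3.47 ± 2.8 CPM (SD, n = 2) with vehicle. The log2 fold change was -0.05 (standard error 0.51, adjusted p = 0.988, edgeR quasi-likelihood). Between the vehicle replicates *Adipoq* differed 3.66-fold, with a 95% exact interval of 2.57 to 5.31 from their 143 and 41 counts, so the gap was wider than counting error. The mCDC replicates, at 88 and 73 counts, had a ratio of 0.999 with an interval of 0.724 to 1.38. These intervals cover counting error only.

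Leptin, the hormone that reports fat stores to the brain, is encoded by *Lep* (chr6:29060221-29073876), whose promoter is shown above. *Lep* had the fewest counts of the members, with 16 and 19 counts in the mCDC muscles against 67 and 9 in the vehicle muscles. Its levels were 0.606 and 0.868 CPM with mCDCs and 2.56 and 0.327 CPM with vehicle. The high value was vehicle replicate 1 alone, 7.81-fold over vehicle replicate 2 (interval 3.88 to 17.8). The log2 fold change of *Lep* was -0.97 (standard error 0.80, adjusted p = 0.796 by edgeR's quasi-likelihood test), a difference within the spread between replicates.

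Resistin, encoded by *Retn* (chr8:3655770-3659818), is an adipokine that opposes insulin action in mice. *Retn* had 0.909 and 1.23 CPM in the mCDC muscles against 2.1 and 0.582 CPM in the vehicle muscles, and the groups overlapped. Its log2 fold change was -0.32 (standard error 0.57, adjusted p = 0.907). Adipsin, encoded by *Cfd* (chr10:79890853-79892655), is the serine protease complement factor D, secreted in quantity by fat cells. *Cfd* had 27.9 and 25.6 CPM with mCDCs and 44.6 and 13.3 CPM with vehicle. Once more the mCDC pair lay inside the vehicle pair. With 365 to 1170 counts per library, *Cfd* was also the best measured of the 6, and its vehicle ratio of 3.36 had an interval of 2.99 to 3.79, against 1.09 (interval 0.975 to 1.22) between the mCDC replicates. The log2 fold change of *Cfd* was -0.11 (standard error 0.45, adjusted p = 0.968).

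Perilipin 1, encoded by *Plin1* (chr7:79721164-79732904), coats the large droplet of the fat cell and gates its lipolysis. *Plin1* had 2.20 and 2.60 CPM in the mCDC muscles against 5.11 and 0.728 CPM in the vehicle muscles. The vehicle replicates were 7.03-fold apart (interval 4.37 to 11.9), on 134 and 20 counts, while the mCDC replicates had a ratio of 0.844 (interval 0.575 to 1.24). The group means, 2.4 ± 0.288 CPM (SD, n = 2) with mCDCs and 2.92 ± 3.1 CPM (SD, n = 2) with vehicle, differed by far less than the vehicle SD. Its log2 fold change was -0.28 (standard error 0.69, adjusted p = 0.939).

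*Cidec* (chr6:113424634-113435760) encodes the protein that lets small droplets merge into a large one. Its levels were 2.88 and 2.47 CPM with mCDCs and 4.85 and 1.27 CPM with vehicle, in the same order as *Adipoq* in the vehicle samples. Its vehicle ratio was 3.81 (interval 2.6 to 5.7) and its log2 fold change was -0.18 (standard error 0.53, adjusted p = 0.951).

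Perilipin 4, encoded by *Plin4* (chr17:56100587-56109948), is a droplet coat protein of fat cells and of muscle, and it did not follow *Plin1*. *Plin4* had 491 and 329 CPM in the mCDC muscles against 560 and 572 CPM in the vehicle muscles, on 7210 to 15733 counts. Both mCDC samples were below both vehicle samples, and the mCDC samples were the pair that differed, by 1.49-fold (interval 1.45 to 1.53), with mCDC replicate 2 the lowest. The vehicle samples had a ratio of 0.978. The means were 410 ± 114 CPM (SD, n = 2) and 566 ± 8.73 CPM (SD, n = 2), and the log2 fold change of *Plin4* was -0.47 (standard error 0.19, unadjusted p = 0.0436, adjusted p = 0.713), under the 1.5-fold threshold. Without mCDC replicate 1 it was -0.78, past the call rule, and without mCDC replicate 2 it was -0.21.

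*Fabp4* (chr3:10204342-10208616) encodes the fatty acid binding protein of fat cells, which is also abundant in capillary endothelium. *Fabp4* had 115 and 114 CPM in the mCDC muscles against 124 and 200 CPM in the vehicle muscles. The mCDC samples were below both vehicle samples and nearly equal to each other, with a ratio of 1.01 (interval 0.954 to 1.06). The high sample was vehicle replicate 2, the one in which *Adipoq* was lowest, at 1.61-fold over vehicle replicate 1 (interval 1.54 to 1.68). The means were 115 ± 0.54 CPM (SD, n = 2) and 162 ± 53.5 CPM (SD, n = 2), and the log2 fold change of *Fabp4* was -0.50 (standard error 0.21, unadjusted p = 0.0462, adjusted p = 0.713), again under 1.5-fold. It was -0.80 and past the call rule without vehicle replicate 1, and -0.12 (unadjusted p = 0.434) without vehicle replicate 2.

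*Scd1* (chr19:44394450-44407709) encodes stearoyl-CoA desaturase 1, which makes monounsaturated fatty acids for storage. *Scd1* had 12.7 and 14.3 CPM in the mCDC muscles against 50.9 and 14 CPM in the vehicle muscles. Vehicle replicate 1 stood alone, and vehicle replicate 2 lay between the mCDC samples. *Scd1* was the member called lower, its log2 fold change being -1.27 (standard error 0.49, unadjusted p = 0.0318, adjusted p = 0.713). Without vehicle replicate 1 its log2 fold change was -0.05 (unadjusted p = 0.784), so the call rested on that library. The call was also lost with DESeq2 (-1.26, unadjusted p = 0.145), with the trend of transcript length and GC content removed (-1.14, unadjusted p = 0.0519) and with the replicate block (-1.01, unadjusted p = 0.0624). Its counts in the table were not whole, and RSEM may have divided reads between *Scd1* and its close relatives. *Scd2*, the paralog, had 8.67 and 8.5 CPM with mCDCs and 9.73 and 12.2 CPM with vehicle.

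*Pparg* (chr6:115360879-115490404) encodes PPARγ, the nuclear receptor that drives fat cell differentiation and is expressed outside fat cells too. *Pparg* had 2.08 and 2.79 CPM in the mCDC muscles against 2.98 and 2.62 CPM in the vehicle muscles. The groups overlapped, and vehicle replicate 1 was 1.14-fold over vehicle replicate 2 (interval 0.814 to 1.59), a difference within counting error. The log2 fold change of *Pparg* was -0.21 (standard error 0.28, adjusted p = 0.87).

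To compare levels between genes, CPM values were divided by transcript length. On this scale, CPM per kilobase, *Fabp4* was the highest member at a mean of 154 over the 4 libraries (128 to 223), followed by *Plin4* at 84.8 (57.2 to 99.4), *Cfd* at 30.2 (14.4 to 48.4) and *Scd1* at 4.76 (2.63 to 10.5). The library ranges of *Fabp4*, *Plin4*, *Cfd* and *Scd1* did not overlap between neighbours in this order. Below them came *Adipoq* at 2.63 (1.15 to 4.22), *Cidec* at 1.67 (0.74 to 2.82), *Pparg* at 1.23 (0.98 to 1.4), *Retn* at 1.06 (0.511 to 1.84), *Plin1* at 0.944 (0.258 to 1.82) and *Lep* at 0.334 (0.1 to 0.784). From *Scd1* down to *Lep*, the range of each gene overlapped that of the next.

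Over the 10 genes, the log2 fold change of mCDC against vehicle ran from -1.27 to -0.05 with a median of -0.30, against a median of -0.0094 over all genes tested. All 10 fitted estimates were below 0, as were 7043 of the 13652 genes tested, and the members share the same 4 libraries, so the signs are not separate observations. The sign also depended on how the replicates were averaged. As a difference of mean log2 CPM, mCDC minus vehicle, the values were above 0 for *Plin1* (0.27), *Adipoq* (0.21), *Cfd* (0.13) and *Cidec* (0.09), and with the replicate number as a block the fit put *Adipoq*, *Plin1* and *Cfd* above 0. An unadjusted p under 0.05 was found for 3 members (*Plin4*, *Fabp4* and *Scd1*), against 6.94% of all genes tested, and no member had an adjusted p below 0.713. Both mCDC libraries lay below both vehicle libraries for 2 members, *Plin4* and *Fabp4*, where 19.5% of all genes did, and above both for 0 members, where 19.2% of all genes did.

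The direction for the fat cell genes depended on which vehicle library was kept. Without vehicle replicate 1, 4 members were called higher in mCDC muscles (*Adipoq*, *Plin1*, *Cidec* and *Cfd*) and *Fabp4* lower, where the same fit called 1.95% of 13972 genes higher and 5.97% lower. *Plin1* then had a log2 fold change of 1.72 (adjusted p = 0.25), *Adipoq* 1.16 (adjusted p = 0.298), *Cidec* 1.07 (adjusted p = 0.372) and *Cfd* 1.02 (adjusted p = 0.205). *Lep*, at 1.15, and *Retn*, at 0.87, were above 0 without being called. Without vehicle replicate 2, 7 members were called lower and 0 higher, where 2.53% of 13812 genes were called lower. *Scd1* then had a log2 fold change of -1.92, *Lep* -1.80, *Plin1* -1.09, *Retn* -0.98, *Cidec* -0.86, *Cfd* -0.74 and *Adipoq* -0.71, and the smallest adjusted p of a member was 0.085, for *Scd1*. In both fits the vehicle library left was assumed to vary as the mCDC libraries did. *Pparg* (-0.11 and -0.30), *Plin4* (-0.48 and -0.45), *Fabp4* and *Scd1* kept their sign in both. Without mCDC replicates 1 and 2 in turn, *Pparg* was at -0.0038 and -0.42.

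**Figure D2:**
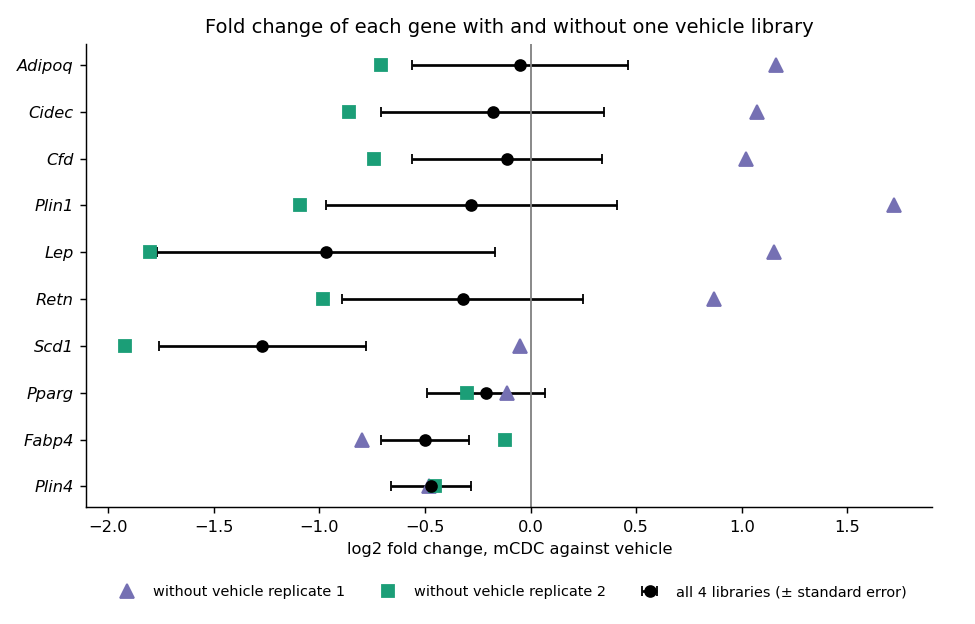
Log2 fold change of each adipocyte gene, mCDC against vehicle, from edgeR. Black points with bars are estimates from all 4 libraries with their standard errors, triangles leave out vehicle replicate 1 and squares leave out vehicle replicate 2. For *Adipoq*, *Cidec*, *Cfd*, *Plin1*, *Lep* and *Retn* the triangle lies above 0 and the square below 0.

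The gap between the vehicle libraries was therefore compared with that of all genes. Vehicle replicate 1 was at least 2-fold over vehicle replicate 2 for 7 of the 10 members, the 6 above and *Scd1* at 3.63-fold, against 1.16% of all genes tested. The reverse gap of at least 2-fold was found for 0 members and 4.70% of all genes. Between the mCDC libraries 0 members differed by 2-fold or more in either direction, where 4.31% of all genes did. Vehicle replicate 1 was the highest and vehicle replicate 2 the lowest of the 4 libraries for 6 members and 8.85% of all genes. With 2 samples a group, it cannot be told from these libraries which of the vehicle samples is nearer to the usual level in vehicle-treated muscle.

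**Figure D3:**
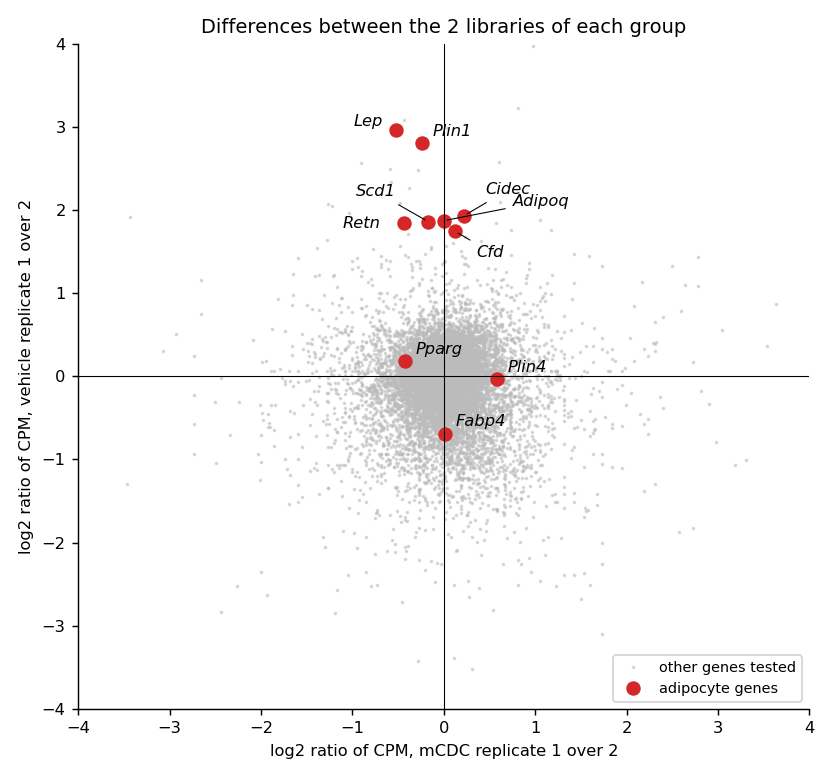
Log2 ratio of CPM between the 2 vehicle libraries (vertical axis) against that between the 2 mCDC libraries (horizontal axis). Red points are the adipocyte genes and grey points the other genes tested, 13614 genes being drawn in all, 30 with a 0 in a library and 8 outside the axes being left out. 7 red points lie above 1 on the vertical axis, and all 10 lie less than 1 from 0 on the horizontal one.

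Some of the members that moved together had similar ratios to *Adipoq* in all 4 libraries. Counts of *Cfd* per count of *Adipoq* were 8.38 and 7.68 in the mCDC muscles against 8.18 and 8.90 in the vehicle muscles, a 1.16-fold range although *Adipoq* itself spanned 3.66-fold between the vehicle libraries. *Cidec* per *Adipoq* ranged 1.2-fold, from 0.74 to 0.888, and *Retn* per *Adipoq* 1.43-fold, from 0.273 to 0.39. *Plin1* per *Adipoq* ranged 1.92-fold, lowest in vehicle replicate 2 at 0.488, and *Lep* per *Adipoq* 2.58-fold, highest in vehicle replicate 1 at 0.469. For *Lep* the interval there, 0.345 to 0.631, did not overlap that of mCDC replicate 1, 0.0996 to 0.312. It did overlap those of mCDC replicate 2, 0.148 to 0.436, and of vehicle replicate 2, 0.0938 to 0.459. *Pparg*, *Plin4* and *Fabp4* did not keep proportion to *Adipoq*, with ranges of 3.22, 3.89 and 5.89-fold, each highest in vehicle replicate 2.

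*Scd1* per count of *Adipoq* differed between the groups in a way that its level did not. The ratio was 3.81 (95% exact interval 3 to 4.87) and 4.28 (3.31 to 5.61) in the mCDC libraries, against 9.33 (7.85 to 11.2) and 9.42 (6.81 to 13.3) in the vehicle libraries. The counting intervals of the mCDC libraries and of the vehicle libraries did not overlap, and within each group the ratios were close. This ratio was singled out after its values were seen, rests on 41 to 143 *Adipoq* counts per library, and has no test.

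**Figure D4:**
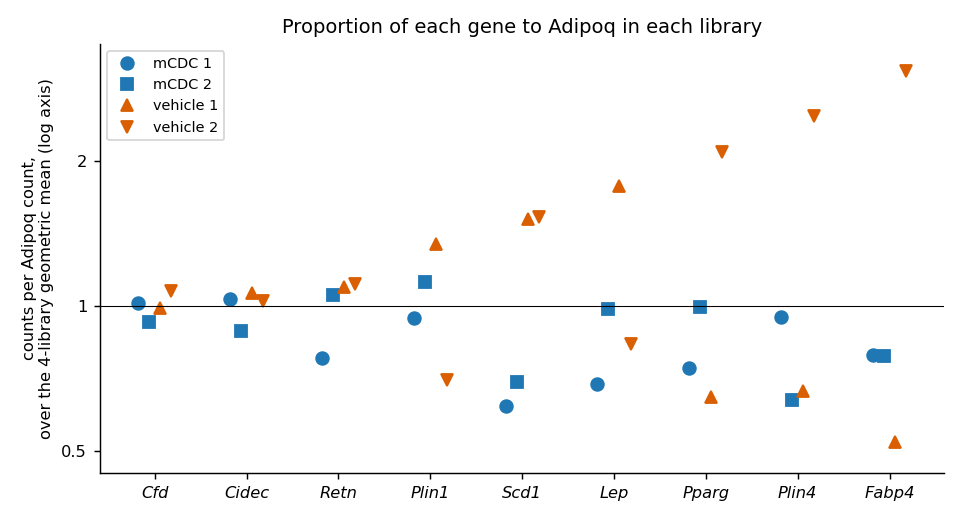
Counts of each adipocyte gene per count of *Adipoq* in each library, divided by the geometric mean of the gene's 4 ratios, on a log axis. Blue circles and squares are mCDC replicates 1 and 2, and orange up and down triangles vehicle replicates 1 and 2. The ratios of *Cfd* and *Cidec* stay near 1 in all libraries, those of *Scd1* split by group, and those of *Pparg*, *Plin4* and *Fabp4* are highest in vehicle replicate 2.

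The profile shared by *Adipoq*, *Plin1* and *Cidec*, in mean log2 CPM around the average of the 4 libraries, was 0.09 and 0.10 in the mCDC libraries, against 0.97 and -1.16 in the vehicle libraries. The root mean square distance from it was 0.14 for *Cfd*, 0.24 for *Retn*, 0.38 for *Lep*, 0.60 for *Scd1*, 0.73 for *Pparg*, 0.86 for *Plin4* and 1.04 for *Fabp4*, against a median of 0.77 over 12208 other genes with a mean of at least 1 CPM. The 10 genes with the smallest distance were *Otud1* (0.15), *Trib1* (0.22), *Cyp2f2* (0.23), *Srrm4*, *Arid5a*, *Adamts1* and *Krt222* (each 0.28), *Kif26b* and *Pcdhgb7* (each 0.32) and *Lrch4* (0.33). *Otud1*, a deubiquitinase, had 69.6 and 90.8 CPM with mCDCs and 144 and 29.9 CPM with vehicle. *Trib1*, a pseudokinase, had 53.4 and 58.7 CPM with mCDCs and 78.0 and 27 CPM with vehicle. These are likenesses over 4 libraries, in which many genes can match by their levels in vehicle replicates 1 and 2.

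Other genes of the fat cell were taken from 9 lists covering droplet proteins, lipolysis and lipid uptake, lipid synthesis, drivers and brakes of fat cell differentiation, adipokine receptors, other adipokines, other fat cell markers and brown or beige fat. Of their 133 genes 120 were tested, and the rule called 4 higher and 5 lower, with 60 estimates above 0 and 60 below. The median log2 fold change was -0.0011. Vehicle replicate 1 was at least 2-fold over vehicle replicate 2 for 10 of the 120, against 1.16% of all genes tested. The reverse held for 10 of the 120, against 4.70% of all genes. Vehicle replicate 1 was highest and vehicle replicate 2 lowest of the 4 libraries for 13 of the 120 and 8.85% of all genes. Among the 5 further genes used to mark fat cells (*Lipe*, *Adig*, *Lgals12*, *Trarg1*, listed as Tusc5, and *Acvr1c*), 0 were called, and vehicle replicate 1 was at least 2-fold over vehicle replicate 2 for *Lgals12*. *Lgals12*, a droplet-bound galectin, had 0.909 and 0.594 CPM with mCDCs and 1.72 and 0.4 CPM with vehicle, the vehicle order of *Adipoq*. Vehicle replicate 1 was above vehicle replicate 2 for 3 of the 5 markers. *Adig*, adipogenin, went the other way, with 0.757 and 0.685 CPM with mCDCs and 0.839 and 1.02 CPM with vehicle. *Trarg1* had 2.06 and 1.27 CPM and *Acvr1c* 0.42 and 0.327 CPM in vehicle replicates 1 and 2, both less than 2-fold apart. *Lipe*, hormone-sensitive lipase, which muscle fibers also make, had 36.9 and 25.3 CPM with mCDCs and 32.1 and 34.6 CPM with vehicle.

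Of 16 droplet protein genes tested, 1 was called higher and 1 lower (median log2 fold change 0.04). The higher gene was *Plin5*, the perilipin of oxidative muscle that ties droplets to mitochondria. *Plin5* had 71.3 and 59.5 CPM with mCDCs and 29.2 and 40.8 CPM with vehicle, so that both mCDC samples were above both vehicle samples. Its log2 fold change was 0.90 (standard error 0.19, adjusted p = 0.516), of opposite sign to that of *Plin4*. The lower gene was *Cav1*, the caveolae coat protein of fat cells and endothelium, at 41.5 and 36.0 CPM with mCDCs and 45.7 and 79.2 CPM with vehicle (log2 fold change -0.69, standard error 0.24). *Pnpla2*, adipose triglyceride lipase, gave a log2 fold change of 0.46 (standard error 0.14, unadjusted p = 0.0116), under the 1.5-fold threshold.

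Of 14 lipolysis and lipid uptake genes, 0 were called higher and 1 lower (median 0.01). This was *Gpihbp1*, which anchors lipoprotein lipase on capillary endothelium, with 5.87 and 8.54 CPM with mCDCs and 9.20 and 19.6 CPM with vehicle (log2 fold change -1.0, standard error 0.36). *Fabp5* came next by p, with a log2 fold change of -0.56 (unadjusted p = 0.108). Of 17 lipid synthesis genes 0 were called higher and 2 lower (median -0.30). *Gpam*, the first enzyme of triglyceride synthesis, had 52.1 and 27.1 CPM with mCDCs and 105 and 60.8 CPM with vehicle (log2 fold change -1.06, standard error 0.33). *Thrsp*, a lipogenic regulator, had 5.83 and 6.58 CPM with mCDCs and 10.5 and 8.48 CPM with vehicle (log2 fold change -0.61, standard error 0.21). In both genes the mCDC samples were below the vehicle samples, and both were highest in vehicle replicate 1. *Pck1*, which makes glycerol for triglyceride in fat cells, had 1.93 and 2.88 CPM with mCDCs and 7.36 and 1.46 CPM with vehicle, the order of *Adipoq*.

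Of 18 genes that drive fat cell differentiation 1 was called higher and 0 lower (median -0.08). This was *Klf5*, a zinc finger factor that also acts in other cell types, with 17.2 and 31.1 CPM with mCDCs and 11 and 12 CPM with vehicle (log2 fold change 1.07, standard error 0.27). *Cebpb*, an early C/EBP factor, had a log2 fold change of -0.41 (unadjusted p = 0.0189), under 1.5-fold. *Cebpd* had 9.88 and 12.7 CPM with mCDCs and 27.8 and 10.9 CPM with vehicle, high in vehicle replicate 1 alone. Of 9 genes that restrain fat cell differentiation 0 were called (median 0.01), and those with the smallest p were *Foxo1* (log2 fold change -0.37, unadjusted p = 0.0484) and *Gata2* (-0.61, unadjusted p = 0.0585). Among 11 receptors and signal genes for adipokines 0 were called (median 0.02), with *Lepr*, the leptin receptor, at -0.48 (unadjusted p = 0.173) and *Socs3*, its feedback inhibitor, at 0.36 (unadjusted p = 0.184). Of 12 further fat cell genes tested 0 were called (median 0.01), the smallest p being those of *Trarg1*, at -0.73 (unadjusted p = 0.0979), and *Adig*, at -0.36 (unadjusted p = 0.397).

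Markers of other cells in the muscle did not share the profile of *Adipoq*. Of 16 markers of fibro-adipogenic progenitors, 15 were highest in vehicle replicate 2, with a summed level of 1036 CPM there and 568 to 675 CPM in the other libraries. Of 11 endothelial markers, 10 were highest in vehicle replicate 2. Their sum was 549 CPM there, 342 CPM in vehicle replicate 1, and 370 and 521 CPM in the mCDC libraries, where *Rgcc* alone gave 357 CPM of mCDC replicate 2. Macrophage markers summed to 86.5 CPM in vehicle replicate 2 and to 48.8 to 62.4 CPM elsewhere. Of these 10 markers 8 were highest in vehicle replicate 2, with *Cd68* highest in mCDC replicate 2 and *Cd163* in vehicle replicate 1. Vehicle replicate 2 was at least 2-fold over vehicle replicate 1 for 6 progenitor, 7 endothelial and 3 macrophage markers. Of all genes tested, 4.70% had such a gap. The share of all genes highest in vehicle replicate 2 was not computed. By these sums vehicle replicate 2 held the most of each marker set, together with the most *Fabp4*, *Cav1* and *Gpihbp1*, and the least *Adipoq*. The part of these cells in the values of *Fabp4* was not tested.

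Between the groups, 0 progenitor markers were called higher and 3 lower (*Lum*, *Smoc2* and *Pdgfra*, median of the 16 genes -0.34), and 0 endothelial markers higher and 2 lower (*Ptprb* and *Flt1*, median of the 11 genes -0.47). *Pdgfra*, the receptor that defines the progenitors, had 6.70 and 5.21 CPM with mCDCs and 6.98 and 13.0 CPM with vehicle (log2 fold change -0.74, standard error 0.31). *Lum*, a matrix proteoglycan, had 10 and 11.5 CPM with mCDCs and 14.8 and 28.6 CPM with vehicle (log2 fold change -1.02, standard error 0.29). *Smoc2* and *Ptprb* had log2 fold changes of -0.69 and -0.80. *Flt1*, at -0.86, overlapped between groups, with 16.3 and 12.2 CPM with mCDCs and 16 and 35.5 CPM with vehicle. Of 10 macrophage markers 1 was called higher, *Cd68*, whose groups overlapped (4.13 and 15.4 CPM with mCDCs, 2.71 and 4.15 CPM with vehicle), and 1 lower, *Csf1r*. Of 9 neutrophil markers, 8 were matched by symbol (*Ly6g* was not), and *Csf3r* alone was tested, at 0.64 to 1.78 CPM. *Mpo* and *Camp* were at 0 in every library, where 0 counts allow up to 3 counts. Of 11 muscle fiber genes 0 were called (median 0.01), the smallest p being those of *Myh4*, at a log2 fold change of 1.90 (unadjusted p = 0.158), and *Ttn*, at -0.22 (unadjusted p = 0.318). *Myh4*, the fastest myosin heavy chain, was high in mCDC replicate 1 alone, with 2096 and 47.5 CPM with mCDCs and 163 and 411 CPM with vehicle.

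**Figure D5:**
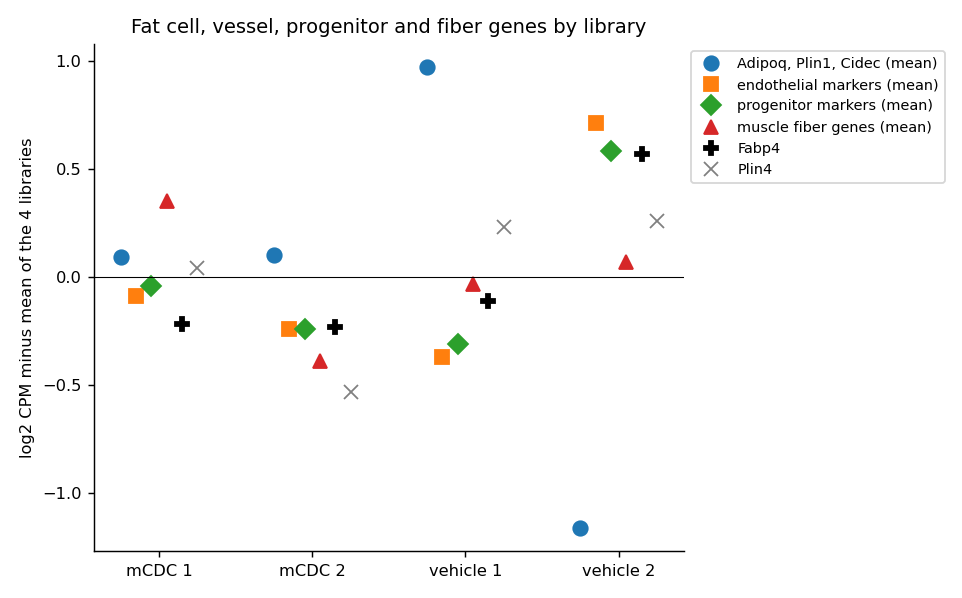
Log2 CPM of gene groups in each library, as the difference from the mean of the 4 libraries. Circles are the mean of *Adipoq*, *Plin1* and *Cidec*, squares of endothelial markers, diamonds of fibro-adipogenic progenitor markers and triangles of muscle fiber genes, with *Fabp4* and *Plin4* shown singly. In vehicle replicate 2 the circles are lowest, at -1.16, while endothelial and progenitor markers and *Fabp4* are at their highest.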

How the data were processed

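Soleus RNA-seq of 2 mCDC and 2 vehicle samples from *mdx* mice was used. Reads were aligned by the authors to UCSC transcripts (mm10, with Bowtie2 2.1.0 and RSEM 1.2.15 in the submitters' processing notes) and deposited expected counts per gene, not normalized. The methods name the xGen Broad-Range kit and the labels a TruSeq stranded kit, so the library type is not settled. Rounded expected counts were tested in R 4.3.3 by the quasi-likelihood F-test of edgeR 4.0.16 (TMM scaling, the filterByExpr filter, Benjamini-Hochberg adjustment over all genes). Scaling factors ran from 0.972 to 1.04. CPM on the log2 scale used a prior count of 2. The fold and p thresholds are those of the study, whose methods do not say whether p was adjusted. Ratios between libraries carry 95% exact binomial intervals. Standard errors follow from the F statistic. The procedure was tested on simulated data.

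Transcript length and GC content came from GENCODE M21, with a length for 98.4% of genes, and loci and promoters from RefSeq GRCm38.p6. *Fabp4* and *Scd1* were not matched to a promoter window. The members, the gene lists and the tests were chosen with earlier results of these data known. Named are all 10 members, the called genes of each list (or up to 2 with the smallest p where fewer were called), and the 10 genes nearest in profile to *Adipoq*, *Plin1* and *Cidec*. Values of *Scd2*, *Lipe*, *Lgals12*, *Acvr1c*, *Pck1*, *Cebpd*, *Pnpla2*, *Nnat*, *Angptl4*, *Rgcc*, *Cd163*, *Krt5*, *Krt10* and *Krt14* were added after they had been seen. Alternatives were DESeq2 1.42.0, edgeR's likelihood ratio and legacy tests, other size factors, other filters, a block for the replicate number, a prior count of 0.5, a correction for length and GC trends, and fits without each library. The lone library of a group was then assumed to vary like the other group. The result of 1 list gene is not reported here.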

Additional observations from a re-analysis of the deposited data

How the results depend on the processing

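Of 89 member values under alternatives that kept all 4 libraries, 83 kept their direction and their side of the threshold. *Scd1* lost its call with DESeq2 (log2 fold change -1.26), with the length and GC trend removed (-1.14) and with the replicate block (-1.01), and no member had an adjusted p under 0.05 under any alternative. Samples of the same number did not deviate together (correlation -0.0388), so the numbers were not taken to pair the muscles. With the replicate block, 172 genes were called higher and 308 lower, the median of the members was -0.22, and *Adipoq* (0.11), *Plin1* (0.016) and *Cfd* (0.12) reversed in sign. *Lep* was not tested at a minimum of 10 counts in every library. Leaving out 1 library at a time gave 112 to 397 genes called higher, 236 to 834 lower, and a member median of -0.80 to 0.94. Without vehicle replicate 1 the sign reversed for *Adipoq* (1.16), *Plin1* (1.72), *Cidec* (1.07), *Cfd* (1.02), *Lep* (1.15) and *Retn* (0.87). Without vehicle replicate 2 *Adipoq* (-0.71), *Plin1* (-1.09), *Cidec* (-0.86), *Cfd* (-0.74), *Lep* (-1.80) and *Retn* (-0.98) passed the call rule as lower. Without mCDC replicate 1 there were 397 genes higher, and without mCDC replicate 2, 112 higher and 236 lower. With 9 to 67 counts per library, *Lep* was limited by depth most.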

Other observations

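Genes of brown and beige fat gave no common direction. Of 10 tested, 1 was called lower and 0 higher after mCDCs, with a median log2 fold change of 0.06. The called gene was *Ppargc1a*, the coactivator of mitochondrial genes, which muscle fibers also express, with 35.7 and 29.6 CPM with mCDCs and 60.3 and 45.6 CPM with vehicle (log2 fold change -0.70, standard error 0.18, adjusted p = 0.612, edgeR quasi-likelihood). *Prdm16*, a determinant of brown fat identity, had a log2 fold change of -0.95 (unadjusted p = 0.0708). *Ucp1*, the uncoupling protein that defines heat-producing fat, was at 0 in 3 libraries and at 0.0379 CPM in mCDC replicate 1.

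Other adipokines were also examined. *Lcn2*, the iron carrier lipocalin 2, had 0.72 and 1.10 CPM with mCDCs and 0.267 and 0.109 CPM with vehicle (log2 fold change 2.24, standard error 0.61, adjusted p = 0.619) and was called higher. Both mCDC samples of *Lcn2* were above both vehicle samples, on 19, 24, 7 and 3 counts, and the vehicle samples differed within counting error (ratio 2.45, 95% exact interval 0.559 to 14.7). *Nnat*, neuronatin, followed the order of *Adipoq*, with 2.54 and 4.75 CPM with mCDCs and 9.23 and 1.56 CPM with vehicle, whereas *Angptl4*, an inhibitor of lipoprotein lipase, was low in vehicle replicate 1 alone (15.8 and 13.2 CPM with mCDCs, 2.94 and 16.2 CPM with vehicle).

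Of 9 tested genes of nerve, tendon, skin and mesothelium, which could come with a dissected muscle, 1 was called higher and 1 lower, both of tendon. *Scx*, the tendon transcription factor, had 40.4 and 55.1 CPM with mCDCs and 29.2 and 23.4 CPM with vehicle (log2 fold change 0.86, standard error 0.20), and *Tnmd*, a membrane protein of mature tendon that fat cells also make, had 1.29 and 1.69 CPM with mCDCs and 4.31 and 3.31 CPM with vehicle (log2 fold change -1.36, standard error 0.30). The keratins *Krt5* and *Krt14*, of skin, had 2.39 and 1.14 CPM in mCDC replicate 1 and at most 0.0382 CPM in the other libraries. *Krt10*, the other skin keratin listed, did not share this pattern. It had 5 and 3.7 CPM with mCDCs and 3.05 and 3.82 CPM with vehicle. *Upk3b*, of mesothelium, was at 0 in every library.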
